A study of Oryctolagus cuniculus with 12 samples.

Results

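Heat shock proteins fold other proteins, and cochaperones (J proteins, BAG proteins, and others) load, release, or steer their clients; here their RNA was followed in rabbit conjunctiva from 3 hours to 14 days after glaucoma filtration surgery. The members were all rows of the gene table whose symbol starts with HSPA, HSPB, HSPD, HSPE, HSPH, HSP90, DNAJA, DNAJB, DNAJC, BAG, or HSF and a number, with at least 10 counts in at least 3 libraries. Of 20566 genes in the table, 80 carried such a symbol and 73 reached the minimum. The other 7 symbols were DNAJB13, with at most 10 counts in a library, HSF5, with at most 9, and DNAJB3, DNAJB7, DNAJB8, DNAJC5G, and HSPB9, each listed at 0 in every library. HSF2BP, a protein that binds heat shock factor 2, was included by its symbol alone.

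The tissue came from female Japanese white rabbits in 4 groups of 3 libraries. The control group was conjunctiva of left eyes that had no operation. The groups TL3h, TL3d, and TL14d were conjunctiva over the filtering bleb of right eyes, sampled after trabeculectomy (at 3 hours, at 3 days, and at 14 days, respectively), an operation that opens a drainage path for aqueous humor under the conjunctiva. By the study's methods, the operated eyes were treated with sponges of mitomycin C, which blocks DNA replication, for 3 minutes, and at the end of surgery with an injection of the glucocorticoid betamethasone and an ointment of erythromycin and colistin, so surgery and these agents cannot be told apart in any comparison with the control group. The animals were 12 to 14 weeks old and were anesthetized with ketamine and xylazine. Which operated eye belongs to which control eye, and when the control tissue was taken, is not given in the sources used here. By the study's text, the 3 libraries of an operated group came from 3 eyes, and surgery was on right eyes only, so these were separate animals. For the 3 control libraries this is not given in the sources used here, so the control spread that enters the p-values may not be that between animals.

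HSP70 proteins bind unfolded stretches of other proteins while they hydrolyze ATP. J proteins bring clients to HSP70 and start its ATP cycle, whereas HSP110 and BAG proteins release the nucleotide again. HSP90 acts later, on clients such as kinases and steroid receptors, HSPD1 and HSPE1 form the folding chamber of mitochondria, and small heat shock proteins hold clients without ATP. Heat shock factor 1 (HSF1) switches on many of these genes when misfolded protein accumulates in the cytosol, and a separate pathway, the unfolded protein response, does so in the endoplasmic reticulum (ER).

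Library totals lay between 27111276 and 38591374 counts. Levels below are CPM, counts divided by library sizes that were scaled by the trimmed mean of M values (TMM), and the scaling factors were 0.768 to 0.783 in TL3h against 1.03 to 1.13 in the other groups. The epithelial keratins KRT5 and KRT4 were high in every library (1258 CPM or more and 752 CPM or more). Other cells moved with the groups. The summed level of 7 neutrophil markers was 3.63 to 84.6 CPM in the control group and 1089 to 2879 CPM in TL3h, where all 7 rose. Control replicate 3 stood apart from the other control libraries. It had the highest control level of neutrophil, macrophage, and plasma cell markers, and FKBP5, a gene induced by glucocorticoids, was at 454 CPM there against 7.26 and 8.83 CPM in control replicates 1 and 2. The labels give it as an unoperated eye like the others, and whether it was handled differently was not tested. It enters every control mean below. Without it, 37 members rose and 2 fell at 3 hours (22.2% and 23.1% of all genes), and 3 rose and 1 fell at 3 days (8.61% and 6.06%). Control replicate 2 and TL3d replicate 3 held skeletal muscle RNA, with ACTA1 at 91.6 and 239 CPM against at most 6.42 CPM elsewhere. In tissue RNA, a change in the number of cells of a type and a change in RNA per cell cannot be told apart, and the part of these cell types in the results below was not tested.

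At 3 hours, members of most chaperone families were higher than in the control group. Of the 73 members, 35 rose and 2 fell (50.7% in all) at an adjusted p of at most 0.05 in edgeR's quasi-likelihood test, with Benjamini-Hochberg adjustment over 14835 genes, beside 23.2% and 22.2% of all genes tested (45.4% in all). The median log2 fold change was 0.58 over the members and 0.02 over all genes. The 3 TL3h libraries all lay above the 3 control libraries for 36 members and all below them for 10, beside 28.9% and 28.3% of all genes. The scale decided part of this split: with plain library sizes in place of TMM, the median of all genes was -0.47, 20 members passed the threshold as higher and 16 as lower (12.7% and 38.2% of all genes), and the members' median lay 0.58 above that of all genes, against 0.56 under TMM. The call held under every one of 19 alternative settings for 20 of the 35 members that rose and for DNAJC28 among the 2 that fell. Leaving out single libraries gave 28 to 41 calls, beside 34.9% to 48.1% of all genes. Without both libraries that held skeletal muscle RNA, 26 members rose and 1 fell, beside 17.3% and 16.5% of all genes.

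**Figure D1:**
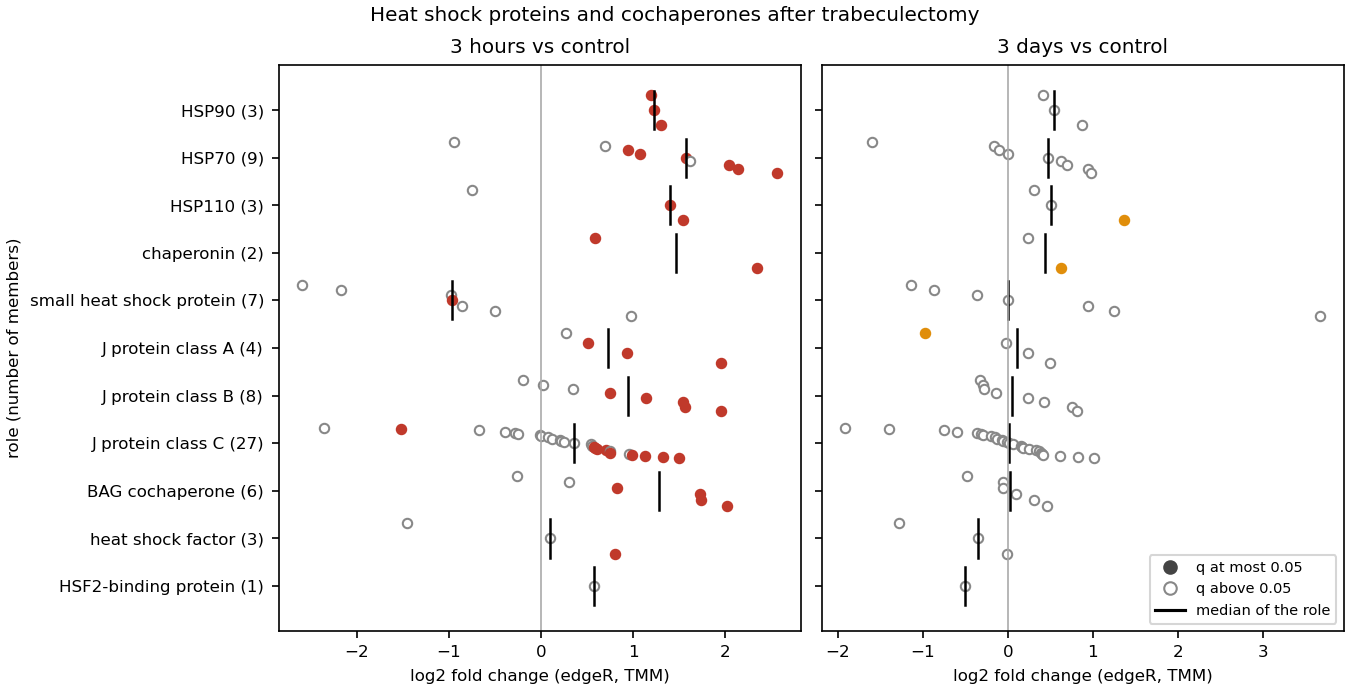
Log2 fold change of each of the 73 members against the control group at 3 hours (left) and 3 days (right), by role on the vertical axis; filled points have an adjusted p of at most 0.05, open points do not, and black lines are role medians. At 3 hours the filled points lie to the right of 0 except HSPB1 and DNAJC28, and at 3 days only HSPA4L, HSPD1, and DNAJA4 are filled.

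Compared per transcript length, in the authors' FPKM, control conjunctiva held most of its heat shock RNA in a few genes. HSPA8, the constitutive cytosolic HSP70, stood first at 443 ± 50.2 FPKM (mean ± SD, n = 3), followed by HSP90AB1 at 259.8 ± 10.1, the small heat shock protein HSPB1 at 212 ± 52.9, HSP90AA1 at 211 ± 14.8, and HSP90B1 at 164 ± 23.1 FPKM. HSPB1 and HSP90AA1 do not differ beyond their spread. HSPA5 had rank 6 at 119 ± 17.3 FPKM and rank 2 in TL3h at 511 ± 47.3 FPKM. HSPB1 had rank 3 in the control group and rank 10 in TL3h, at 77.8 ± 31.1 FPKM. These FPKM values are not TMM scaled, so they are used here for order within a group only.

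Among the HSP70 proteins, 6 of 9 rose at 3 hours and none fell, beside 23.2% and 22.2% of all genes. The median log2 fold change was 1.58 (1.10 with plain library sizes, where 4 rose, beside 12.7% of all genes). HSPA5 (BiP), the HSP70 of the ER and a sensor of its load, was measured at 293, 276, and 385 CPM in the control group, 1682, 2059.8, and 1902 in TL3h, 657, 554, and 624 in TL3d, and 256, 656, and 505 in TL14d. Every TL3h library lay above every other library, the TL3d libraries lay between, and the TL14d libraries straddled the control range. The rise at 3 hours was 5.92-fold (log2 fold change 2.57 ± 0.31, adjusted p = 0.000178). HSPA8 was measured at 1032, 901, and 1210.2 CPM in the control group, 4970.1, 4165, and 3830.4 in TL3h, 1910.0, 1598, and 1346 in TL3d, and 892, 1659, and 1193 in TL14d, with no overlap between TL3h and any other group (log2 fold change 2.04 ± 0.26, adjusted p = 0.000218). All of its counts were fractions, as estimated counts are when reads are divided among similar copies, so its level is less certain than that of HSPA5.

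HSPA13, a microsomal HSP70, rose from 35.6 ± 12.4 to 157 ± 20.4 CPM (log2 fold change 2.14 ± 0.32, adjusted p = 0.000497). HSPA9, the mitochondrial HSP70 (mortalin), had 205, 205, and 199 CPM in the control group and 422, 422, and 438 in TL3h (log2 fold change 1.08 ± 0.13, adjusted p = 0.000185). Both groups were narrow, and HSPA9 was back at 212, 183, and 169 CPM at 3 days. HSPA14, which works at the ribosome, rose less (log2 fold change 0.94, adjusted p = 0.00974). It missed the threshold without TL3h replicate 3 (log2 fold change 0.65, adjusted p = 0.0508) and with plain library sizes (adjusted p = 0.14). HSPA2, best known from the testis, was measured at 11.6, 14.7, and 34.8 CPM in the control group and 61.9, 97.2, and 23.6 CPM in TL3h. These libraries overlapped, with TL3h replicate 3 below control replicate 3. HSPA2 passed at 3 hours (log2 fold change 1.58 ± 0.58, adjusted p = 0.0473), but the call was lost under 15 of 19 alternatives, among them without control replicate 1, control replicate 2, TL3h replicate 1, TL3h replicate 2, TL3d replicate 1, TL3d replicate 2, TL3d replicate 3, TL14d replicate 2, or TL14d replicate 3 (log2 fold change 1.02 to 1.58, adjusted p = 0.0525 to 0.203). HSPA6, HSPA12A, and HSPA12B did not pass, except HSPA12A without control replicate 3 (log2 fold change 2.34, adjusted p = 0.0265). HSPA12B had 23.3, 30.2, and 30.4 CPM in the control group and 15.3, 18.8, and 9.33 in TL3h, all lower (log2 fold change -0.95, adjusted p = 0.327).

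The inducible HSP70 genes of type 1 and DNAJB1, classical targets of HSF1, have no symbol of their own in this table. HSPA6, another inducible HSP70, has one. It was low, with FPKM rank 69 of 73 in the control group and 66 in TL3h, and did not pass at 3 hours. By their descriptions, 3 rows on chromosome 12 (LOC100353783, LOC100354037, and LOC100354435) are heat shock 70 kDa protein 1B or like it. LOC100353783 (20630064 to 20655995 on OryCun2.0) shares 2249 bases with LOC100354037 on the same strand, LOC100354435 starts 23031 bases farther on, and all counts of the 3 rows were fractions, so they were summed. The summed level was 36.8, 47.2, and 50.6 CPM in the control group, 176, 292, and 155 in TL3h, 27.3, 24.6, and 34.1 in TL3d, and 59.1, 24.9, and 34.5 in TL14d. All 3 TL3h libraries lay far above the rest, and the TL3d libraries lay below all 3 control libraries. The sum rose at 3 hours (log2 fold change 2.21 ± 0.34, adjusted p = 0.000623), did not differ from the control group past the threshold at 3 days (log2 fold change -0.65 ± 0.33, adjusted p = 0.181), and fell between 3 hours and 3 days (log2 fold change -2.86 ± 0.35, adjusted p = 0.000229). The row described as DNAJB1 (LOC100345293), the J protein that partners inducible HSP70, had 3.96, 4.55, and 3.06 CPM in the control group and 8.76, 7.51, and 5.93 in TL3h (log2 fold change 0.94 ± 0.28, adjusted p = 0.019). Its groups did not overlap, but the call was lost without control replicate 1, control replicate 3, TL3h replicate 1, or TL3h replicate 2 (log2 fold change 0.74 to 0.95, adjusted p = 0.0527 to 0.0827) and with plain library sizes.

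All 3 HSP90 members rose at 3 hours under every alternative, plain library sizes included, beside 23.2% of all genes (12.7% with plain library sizes). A mitochondrial relative outside the symbols used here did not follow them. That row (LOC103345437), described as mitochondrial heat shock protein 75 kDa, overlapped between the groups (log2 fold change 0.08 ± 0.16, adjusted p = 0.708). HSP90AA1, the stress-responsive cytosolic form, was measured at 653, 604, and 603 CPM in the control group, 1586, 1656, and 1346 in TL3h, 1007, 972, and 739 in TL3d, and 657, 893, and 755 in TL14d (log2 fold change 1.30 ± 0.18, adjusted p = 0.000315). HSP90AB1, the constitutive form, had 658, 661, and 657 CPM in the control group and 1676, 1522, and 1415 in TL3h (log2 fold change 1.22 ± 0.16, adjusted p = 0.000273). The 3 control libraries of HSP90AB1 were nearly equal. HSP90B1 (GRP94), the ER form, rose from 481 ± 86.7 to 1099.5 ± 146 CPM (log2 fold change 1.19 ± 0.28, adjusted p = 0.00602). It stayed at 794, 723, and 1134 CPM at 3 days, where TL3d replicate 3 reached the TL3h range. That difference from the control group did not pass (log2 fold change 0.88 ± 0.28, adjusted p = 0.0535), except without TL14d replicate 1 (log2 fold change 0.88, adjusted p = 0.0166) and under 4 other alternatives.

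In the HSP110 family, which frees HSP70 of its nucleotide, HSPH1 and HSPA4 rose and HSPA4L did not follow them. HSPH1 had 64.0, 60.3, and 81.5 CPM in the control group and 183, 202, and 214 in TL3h (log2 fold change 1.54 ± 0.22, adjusted p = 0.000455). HSPA4 had 122, 119, and 129.7 CPM in the control group and 283, 339, and 355 in TL3h (log2 fold change 1.40 ± 0.21, adjusted p = 0.000547). In both genes every TL3h library lay above every control library. HSPA4L, a relative of HSPA4, was measured at 22.1, 24.2, and 13.1 CPM in the control group, 11.7, 9.17, and 14.4 in TL3h, 58.9, 59.9, and 34.4 in TL3d, and 17.9, 50.2, and 42.4 in TL14d. Its TL3h libraries overlapped the control range (log2 fold change -0.75 ± 0.39, adjusted p = 0.141), and its TL3d libraries were above all control and all TL3h libraries. The rise of HSPA4L against the control group at 3 days passed narrowly (log2 fold change 1.37 ± 0.39, adjusted p = 0.0403) and was lost without control replicate 1, control replicate 2, control replicate 3, TL3h replicate 1, TL3h replicate 2, TL3h replicate 3, TL3d replicate 1, TL3d replicate 2, or TL14d replicate 3 (log2 fold change 1.12 to 1.53, adjusted p = 0.0509 to 0.123). It was also lost with a replicate block (adjusted p = 0.0518) and without both libraries that held skeletal muscle RNA. Its rise between 3 hours and 3 days (log2 fold change 2.12 ± 0.40, adjusted p = 0.00255) held under all 19 alternatives.

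The mitochondrial chaperonin genes lie head to head on chromosome 7 of OryCun2.0, HSPD1 at 137982509 to 137993822 on the minus strand and HSPE1 at 137994333 to 138042394 on the plus strand, with 510 bases between them. HSPD1 (HSP60), the barrel of the folding chamber, was measured at 109, 112, and 137 CPM in the control group, 546, 680.4, and 599.7 in TL3h, 199, 174, and 179 in TL3d, and 102, 158, and 139.7 in TL14d. It had the smallest adjusted p of all members at 3 hours, with a 5.10-fold rise (log2 fold change 2.35 ± 0.19, adjusted p = 3.14e-05). HSPE1 (HSP10), its lid, had 45.9, 47.2, and 53.4 CPM in the control group and 75, 62.6, and 82.2 in TL3h, a smaller rise (log2 fold change 0.58 ± 0.12, adjusted p = 0.00374) that was not called with plain library sizes. All HSPE1 counts were fractions, and a row described as another copy of it (LOC100356803) rose by 0.53 on the log2 scale (adjusted p = 0.0123), so the level of HSPE1 is uncertain. At 3 days HSPD1 was still above every control library, and it was the only member called higher at both times (log2 fold change 0.63 ± 0.18, adjusted p = 0.0385). That call was lost without control replicate 1, control replicate 2, TL3h replicate 1, TL3h replicate 3, TL3d replicate 1, TL3d replicate 2, TL3d replicate 3, or TL14d replicate 3 (log2 fold change 0.57 to 0.66, adjusted p = 0.0503 to 0.124).

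**Figure D2:**
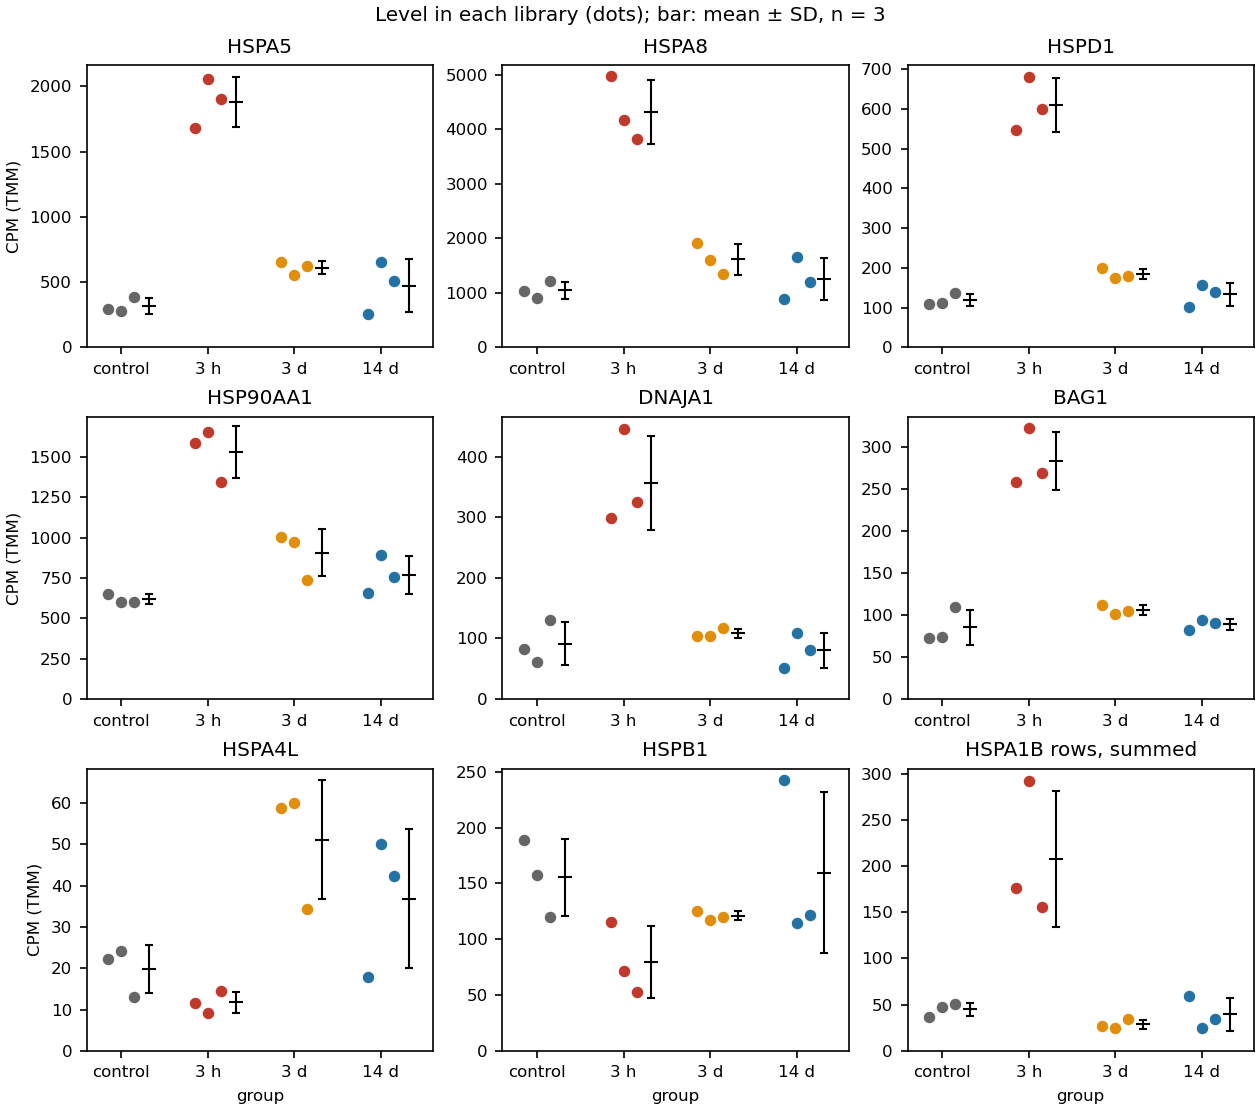
CPM (vertical axes, linear from 0) of 8 members and of the summed heat shock 70 kDa protein 1B rows in each of the 12 libraries by group; bars are mean ± SD over 3 libraries. HSPA5, HSPA8, HSPD1, HSP90AA1, DNAJA1, BAG1, and the summed rows peak in TL3h, HSPA4L is highest in TL3d, and HSPB1 is lowest in TL3h.

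The small heat shock proteins had a median log2 fold change of -0.96 at 3 hours (-1.47 with plain library sizes). Of 7, 0 were called higher and 1 lower, beside 23.2% and 22.2% of all genes. HSPB1 (HSP27), which binds actin and unfolded clients and is abundant in epithelium, was measured at 189, 158, and 119.7 CPM in the control group, 115, 71.4, and 52.6 in TL3h, 126, 118, and 120.3 in TL3d, and 243, 114, and 122 in TL14d. The TL3h libraries lay below the control libraries, with TL3h replicate 1 only just under control replicate 3. HSPB1 fell by 0.96 on the log2 scale (SE 0.34, adjusted p = 0.0415), and the call was lost without control replicate 1, control replicate 2, TL3h replicate 2, TL3h replicate 3, TL3d replicate 1, TL3d replicate 2, or TL3d replicate 3 (log2 fold change -0.97 to -0.79, adjusted p = 0.0538 to 0.13), with the 2 groups fitted alone, and without both libraries that held skeletal muscle RNA. HSPB11, which also works in cilia, lay at 5.32, 6.18, and 5.77 CPM in the control group and 3.57, 3.15, and 2.78 in TL3h, with no overlap but short of the threshold (log2 fold change -0.86, adjusted p = 0.0525), which it passed without TL3d replicate 3, TL14d replicate 1, or TL14d replicate 2 (log2 fold change -0.86 to -0.86, adjusted p = 0.0279 to 0.04). HSPB8, which works with BAG3 to clear misfolded protein, had 5.03, 11.2, and 18.4 CPM in the control group and 22.7, 28.3, and 17.2 in TL3h, where the groups overlapped (log2 fold change 0.98, adjusted p = 0.19).

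HSPB2, HSPB3, HSPB6, and HSPB7 are known from muscle, and each was highest in 1 or 2 libraries. HSPB7 was measured at 0.261, 4.9, and 1.40 CPM in the control group, 0.5, 1.62, and 1.21 in TL3h, 0.275, 5.85, and 77.9 in TL3d, and 0.773, 4.92, and 59.3 in TL14d. The high TL3d value was that of TL3d replicate 3, which also had ACTA1 at 239 and the smooth muscle actin ACTA2 at 450.0 CPM, and the high TL14d value was that of TL14d replicate 3, where ACTA1 was 0.814 and ACTA2 352 CPM. Despite a log2 fold change of 3.68 at 3 days, HSPB7 did not pass (SE 1.90, adjusted p = 0.189). HSPB6 was highest in control replicate 2 (10.6 CPM) and TL3d replicate 3 (6.29 CPM), the libraries with skeletal muscle RNA. HSPB2 was also highest in these libraries, at 1.35 and 2.62 CPM. On chromosome 1, 871 bases separate HSPB2 from CRYAB, a small heat shock protein outside the symbols used here, whose TL3h libraries held 236, 792, and 406 CPM against 252, 182, and 127 in the control group (log2 fold change 1.35, adjusted p = 0.0557, and past the threshold without TL3h replicate 1 or TL14d replicate 1 (log2 fold change 1.35 to 1.63, adjusted p = 0.0239 to 0.0321)).

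**Figure D3:**
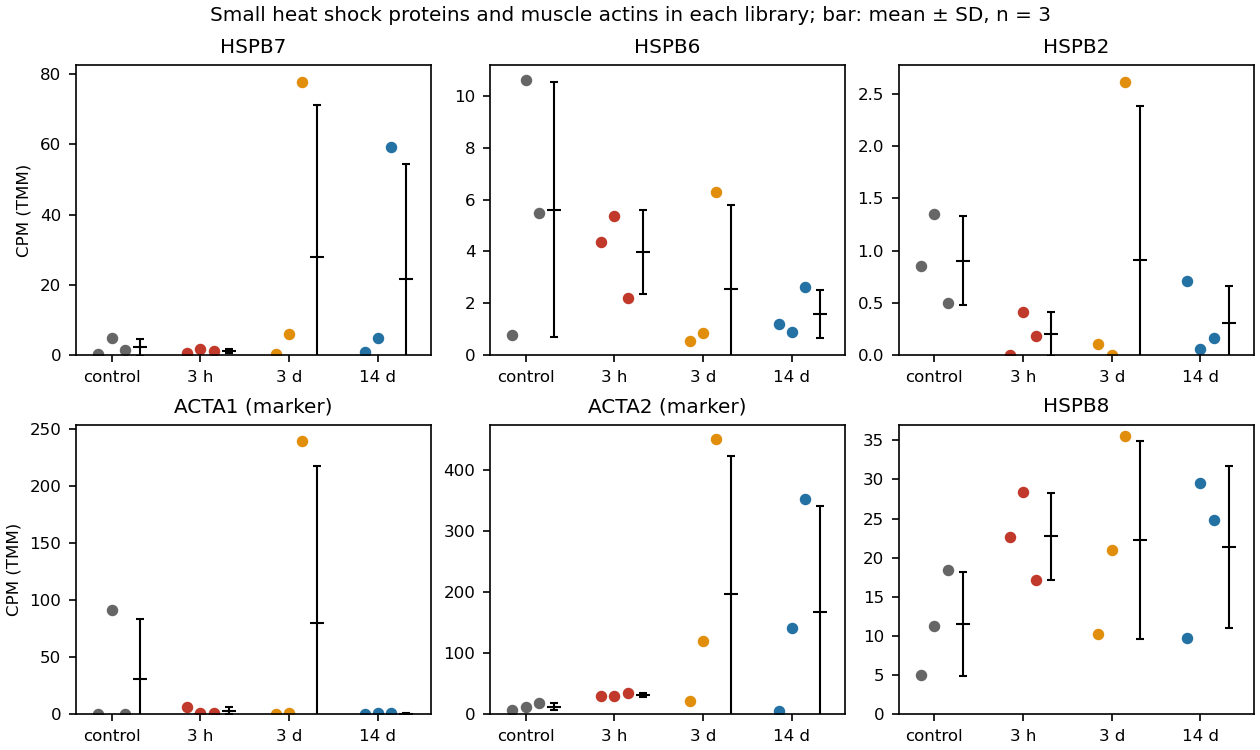
CPM (vertical axes, linear from 0) of HSPB7, HSPB6, HSPB2, and HSPB8 and of the muscle actins ACTA1 (skeletal) and ACTA2 (smooth) in each of the 12 libraries by group; bars are mean ± SD over 3 libraries and are cut at 0. TL3d replicate 3 is the highest TL3d library in all 6 panels, and TL14d replicate 3 is high in HSPB7 and ACTA2 but near 0 in ACTA1.

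Among class A J proteins, the general partners of HSP70, 3 of 4 rose at 3 hours, beside 23.2% of all genes. DNAJA1 was measured at 82.6, 61.7, and 131 CPM in the control group, 299.6, 446, and 325 in TL3h, 105, 104, and 117 in TL3d, and 50.8, 109, and 81.6 in TL14d (log2 fold change 1.96 ± 0.33, adjusted p = 0.000961), with no overlap between TL3h and the other groups. All of its counts were fractions, and a second row described as DNAJA1 (LOC100346508) rose as well (log2 fold change 2.48, adjusted p = 0.000643). DNAJA2 rose by 0.94 (adjusted p = 0.00233). DNAJA3, a mitochondrial member, rose by 0.51 (adjusted p = 0.0333) and was lost without control replicate 1, control replicate 2, TL3h replicate 2, TL3h replicate 3, or TL3d replicate 2 (log2 fold change 0.32 to 0.51, adjusted p = 0.0508 to 0.187). With plain library sizes only DNAJA1 of these was called. DNAJA4 was measured at 10.5, 11.6, and 11 CPM in the control group, 13.7, 13.6, and 12.6 in TL3h, 4.5, 4.56, and 7.83 in TL3d, and 10.4, 7.55, and 11.8 in TL14d. It did not pass at 3 hours and fell at 3 days (log2 fold change -0.97 ± 0.24, adjusted p = 0.027), when TL3d replicate 3 lay closest to the control range. The call was lost without control replicate 1, control replicate 2, TL3d replicate 1, or TL3d replicate 2 (log2 fold change -1.01 to -0.83, adjusted p = 0.072 to 0.103).

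Class B held 8 members, of which 5 rose at 3 hours and 0 fell (3 and 2 with plain library sizes). Of all genes, 23.2% rose and 22.2% fell (12.7% and 38.2%). DNAJB9 (ERdj4), a J protein of the ER that helps to degrade misfolded clients, had 25.6, 29.3, and 53.3 CPM in the control group and 128, 105, and 188 in TL3h (log2 fold change 1.96 ± 0.35, adjusted p = 0.00136). DNAJB11 (ERdj3), which works with HSPA5, had 27.7, 29.1, and 43.3 CPM in the control group and 88.4, 89.2, and 119.6 in TL3h (log2 fold change 1.57 ± 0.27, adjusted p = 0.00114). Neither gene overlapped between these groups, although control replicate 3 was the highest control library in both. DNAJB5 was low, with 1.5, 1.48, and 2.93 CPM in the control group and 6.46, 5.73, and 5.01 in TL3h (log2 fold change 1.54 ± 0.44, adjusted p = 0.0162), and was lost without control replicate 1, control replicate 2, or TL3h replicate 1 (log2 fold change 1.37 to 1.40, adjusted p = 0.0502 to 0.0642). DNAJB6, which prevents aggregation, rose by 1.14 (adjusted p = 0.00232), and DNAJB2, a neuronal form, by 0.75 (adjusted p = 0.00858). DNAJB4 did not pass, with 41.2, 40.6, and 38.1 CPM in the control group and 33.7, 43.1, and 28.1 in TL3h (log2 fold change -0.19, adjusted p = 0.4), but it was called lower with plain library sizes.

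Class C is the most diverse class, in which the J domain is often joined to a special task. Of 27 members, 9 rose (33.3%), 1 fell (3.7%), and 17 did not pass at 3 hours, beside 23.2% higher and 22.2% lower of all genes. The median log2 fold change was 0.36. With plain library sizes the median turned to -0.12, and 4 were called higher and 9 lower, beside 12.7% and 38.2% of all genes. DNAJC25, DNAJC2 (which binds the ribosome), and DNAJC21 (ribosome assembly) rose by 1.5, 1.33, and 1.13 on the log2 scale, and DNAJC7, which links HSP70 with HSP90, by 0.99. These 4 calls held under all 19 alternatives. DNAJC13, an endosomal member, rose by 0.75, but not with plain library sizes. DNAJC18 rose by 0.70 and was lost without control replicate 1, control replicate 2, TL3h replicate 1, or TL3h replicate 2 (log2 fold change 0.57 to 0.64, adjusted p = 0.0736 to 0.0974). DNAJC14 rose by 0.58 and was lost without control replicate 2, control replicate 3, or TL3h replicate 1 (log2 fold change 0.48 to 0.53, adjusted p = 0.054 to 0.0642). DNAJC11, a mitochondrial member, rose by 0.57 and was lost without control replicate 2, control replicate 3, or TL3h replicate 3 (log2 fold change 0.36 to 0.55, adjusted p = 0.0745 to 0.14). These last 3 calls also fell away with plain library sizes. DNAJC3 (p58IPK), an ER member that restrains the kinase PERK, rose by 0.61 (adjusted p = 0.0436) and was lost without control replicate 1, control replicate 2, TL3h replicate 1, TL3h replicate 3, TL3d replicate 1, TL3d replicate 2, or TL14d replicate 3 (log2 fold change 0.40 to 0.61, adjusted p = 0.0568 to 0.199).

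DNAJC28 was the only class C member called lower at 3 hours. The TL3h libraries lay entirely below the control libraries for 5 of the 27 members, beside 28.3% of all genes. The lowest log2 fold change in the class was -2.36, in a member that did not pass. DNAJC28 was measured at 9.02, 9.30, and 6.62 CPM in the control group, 3.11, 2.74, and 2.82 in TL3h, 8.79, 5.88, and 7.74 in TL3d, and 8.47, 7.80, and 8.14 in TL14d. All TL3h libraries lay below all other libraries, the control and later groups overlapped each other, and the fall at 3 hours (log2 fold change -1.52 ± 0.21, adjusted p = 0.000332) held under all 19 alternatives. Its level returned by 3 days (log2 fold change 1.37 ± 0.21, adjusted p = 0.000774 against TL3h).

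Of 6 BAG cochaperones, 4 rose at 3 hours and 0 fell (2 and 1 with plain library sizes), beside 23.2% and 22.2% of all genes (12.7% and 38.2%). BAG1, which ties HSP70 to the proteasome, was measured at 72.6, 74.3, and 109 CPM in the control group, 258, 323, and 269 in TL3h, 112, 101, and 105 in TL3d, and 82.0, 94.6, and 90.8 in TL14d (log2 fold change 1.73 ± 0.17, adjusted p = 7.31e-05). BAG5 had 8.76, 8.63, and 10.6 CPM in the control group and 33.2, 37.5, and 22.2 in TL3h (log2 fold change 1.73 ± 0.22, adjusted p = 0.000218). TL3h stood clear of the control group in both genes. BAG2, an inhibitor of the ubiquitin ligase CHIP, had 3.04, 3.90, and 19.3 CPM in the control group and 24.1, 44.1, and 38.4 in TL3h (log2 fold change 2.02 ± 0.70, adjusted p = 0.0376). Control replicate 3 approached the TL3h range, and the call was lost without control replicate 1, control replicate 2, TL3h replicate 2, TL3h replicate 3, or TL3d replicate 2 (log2 fold change 1.61 to 2.02, adjusted p = 0.0533 to 0.119). BAG3, an HSF1 target that steers clients to autophagy, had 124, 98.3, and 185 CPM in the control group and 213, 287, and 224 in TL3h (log2 fold change 0.83 ± 0.23, adjusted p = 0.013). Here again control replicate 3 was the highest control library, and the call was lost without control replicate 1 or TL3h replicate 2 (log2 fold change 0.63 to 0.76, adjusted p = 0.0521 to 0.0628). BAG4 did not pass (log2 fold change -0.26, adjusted p = 0.231), but it was called lower with plain library sizes.

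BAG6, which guards tail-anchored proteins on their way to the ER, did not pass as a gene (log2 fold change 0.30, adjusted p = 0.0757), but its transcripts differed in direction. Of the 163 transcripts of members in the transcript table, 133 were tested, and 40 rose and 2 fell at 3 hours, beside 14.1% and 14.1% of all transcripts. With plain library sizes, 28 rose and 14 fell, beside 8.37% and 24.1% of all transcripts. BAG6 alone among the 26 members with at least 2 tested transcripts had calls in both directions, 3 higher and 1 lower of 14. How often this occurs over all genes was not counted, and a gene with many transcripts has more chances of it. The transcript of 3664 bases had 11.1, 6.59, and 7.53 CPM in the control group and was listed at 0 in all 3 TL3h libraries. A count of 0 allows up to 3 counts, or 0.103 to 0.118 CPM in those libraries. The control mean of 8.39 CPM was 71.2-fold above the highest of these floors. The floors cover counting error only, not the division of reads among transcripts. The transcript of 3622 bases, in turn, had 13.1, 14.3, and 16.3 CPM in the control group and 52.9, 30.5, and 36.1 in TL3h (log2 fold change 1.45 ± 0.23, adjusted p = 0.00139). The most abundant BAG6 transcript, of 3829 bases, lay at 105 to 111 CPM in the control group and 102 to 129 in TL3h. These transcripts share most of their sequence and their counts are estimates, so the split among them is uncertain.

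Of the 3 heat shock factors, only HSF1 rose, from 23.3, 21.8, and 22.7 CPM in the control group to 35.6, 44.8, and 38.0 in TL3h (log2 fold change 0.80 ± 0.14, adjusted p = 0.00106). The groups were well apart, but the call was lost with plain library sizes. HSF2, a partner of HSF1 with roles in development, overlapped between the groups (log2 fold change 0.10, adjusted p = 0.768). HSF4, known from the lens, had 4.27, 3.83, and 2.73 CPM in the control group and 1.23, 1.54, and 1.17 in TL3h. Its libraries did not overlap, yet it did not pass (log2 fold change -1.46, adjusted p = 0.0884), except under 5 alternatives, among them without TL14d replicate 1 or TL14d replicate 2 (log2 fold change -1.46 to -1.46, adjusted p = 0.0198 to 0.0219).

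By compartment, members rose in the cytosol, the ER, and mitochondria, beside 23.2% of all genes higher and 22.2% lower. With plain library sizes, in parentheses below, these shares were 12.7% and 38.2%. Among members assigned to the ER, 6 of 10 rose, with a median log2 fold change of 0.90 (0.41 with plain library sizes, 5 higher and 1 lower). In mitochondria 5 of 8 rose, with a median of 0.58 (0.08, 2 higher and 2 lower), and in the cytosol 9 of 18 rose and 1 fell, with a median of 0.94 (0.44, 6 higher and 2 lower). For the 35 members that rose, control replicate 3 was the highest control library in 25, TL14d replicate 1 the lowest TL14d library in 26, and the lowest TL3h library was above all 9 other libraries in 29. The last count is partly fixed, since these members were picked by their high TL3h values.

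**Figure D4:**
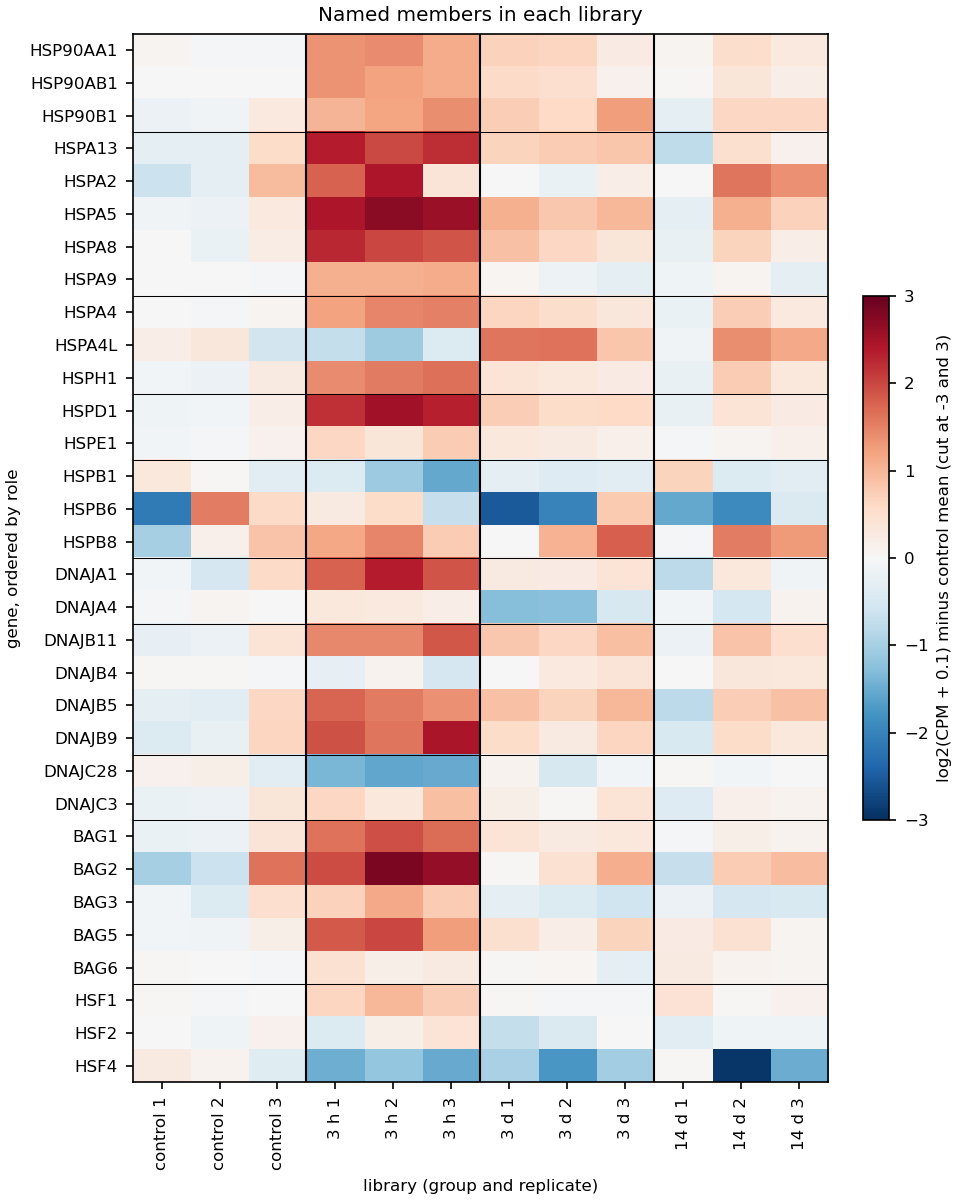
Log2(CPM + 0.1) minus the mean of the control libraries for 32 named members (rows, grouped by role) in each of the 12 libraries (columns, by group and replicate), cut at -3 and 3 for color. The TL3h columns are red in most rows and mostly blue for HSPA4L, HSPB1, DNAJC28, and HSF4, and the column of TL14d replicate 1 lies closer to the control columns than those of TL14d replicates 2 and 3 for HSPA2 and HSPA4L.

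At 3 days, 2 of 73 members were higher (HSPA4L and HSPD1) and 1 was lower (DNAJA4) than in the control group, beside 10.6% and 7.0% of all genes tested. The median log2 fold change was 0.09 over the members and 0.00 over all genes. The 19 members with an unadjusted p under 0.05 compare with 36.2% of all genes. The TL3d libraries lay entirely above the control libraries for 19 members and entirely below them for 13, beside 23.8% and 21.7% of all genes. Several of the strongest genes of 3 hours lay in between, short of the threshold, among them HSPA5 (log2 fold change 0.94, adjusted p = 0.0512), HSP90AA1 (log2 fold change 0.55, adjusted p = 0.0558), HSPA8 (log2 fold change 0.63, adjusted p = 0.1), and DNAJB11 (log2 fold change 0.75, adjusted p = 0.0724). HSP90AA1 passed without TL3d replicate 3, TL14d replicate 1, or TL14d replicate 2 (log2 fold change 0.55 to 0.68, adjusted p = 0.0356 to 0.0463), and DNAJB11 without control replicate 3 or TL14d replicate 1 (log2 fold change 0.75 to 0.97, adjusted p = 0.0276 to 0.0464). The number of calls at 3 days depended on the setting. It was 13 (17.8% of members) in DESeq2's Wald test, beside 30.1% of all genes, and 9 (12.5%) with the 2 groups fitted alone, beside 22.6% of all genes. It was 0 without control replicate 1, control replicate 2, TL3d replicate 1, or TL3d replicate 2. Of all genes, 3.25%, 2.46%, 2.97%, and 2.37% passed there. It was 1 without TL3h replicate 1, TL3h replicate 3, or TL14d replicate 3 (14.0%, 13.6%, and 13.9% of all genes). It was 3 without TL3h replicate 2 and 4 without control replicate 3 (15.6% and 14.7%). Without TL14d replicate 2, TL3d replicate 3, and TL14d replicate 1 it was 5, 8, and 11 (19.8%, 15.2%, and 25.0%). HSPA5 was called without TL14d replicate 1 or TL14d replicate 2 (adjusted p = 0.00703 and 0.0307, with adjusted p = 0.00703 to 0.202 over its 19 alternatives). No member transcript passed at 3 days in edgeR, where 28 had an unadjusted p under 0.05, beside 3.24% of all transcripts called higher and 1.88% lower. In DESeq2 11 passed (8.27%), beside 18.6% of all transcripts.

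From 3 hours to 3 days, 31 members fell and 2 rose (HSPA4L and DNAJC28), beside 19.0% and 18.4% of all genes (37.3% in all), with a median log2 fold change of -0.53 over the members and -0.05 over all genes. With plain library sizes, 16 fell and 11 rose (8.31% and 34.2% of all genes), and the members' median lay 0.48 below that of all genes under both scalings. This comparison shares the TL3h libraries with the comparison at 3 hours, so a high TL3h value enters both. The TL3d libraries lay entirely below the TL3h libraries for 38 of the 73 members, beside 28.5% of all genes. Among the 35 members called higher at 3 hours it was 30, but these were picked by their high TL3h values. The log2 differences were -1.72 for HSPD1, -1.72 for DNAJA1, -1.62 for HSPA5, -1.42 for HSPA8, -1.42 for BAG1, and -1.30 for BAG3 on the log2 scale, each called under all 19 alternatives. HSP90AA1 and HSP90AB1 also fell (-0.76 and -0.81), but not with plain library sizes, and HSP90B1 did not pass (log2 fold change -0.32, adjusted p = 0.392).

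At 14 days, 0 of 73 members passed against the control group in edgeR, beside 0.0% of all genes, and 0 passed in DESeq2, beside 2.47% of all genes. An unadjusted p under 0.05 was found for 2 members and for 10.4% of all genes. The TL14d libraries lay above the control libraries for 4 members (HSP90AA1, HSP90AB1, HSF1, and BAG6) and below them for DNAJC13, beside 6.03% and 5.11% of all genes. The median SD of log2 levels within a group was 0.32 over the members in TL14d and 0.20 to 0.24 in the other groups, and over all genes tested it was 0.32 in TL14d and 0.21 to 0.26 in the others. HSPA5 was at 256, 656, and 505 CPM, lowest in TL14d replicate 1. This library was closer to the control libraries than to its own group. Its log2 levels over all genes tested correlated at 0.950 to 0.982 with the control libraries. With TL14d replicates 2 and 3 the correlations were 0.900 and 0.928. ACTA2 was at 5.14, 142, and 352 CPM in TL14d. The reason was not tested, and the lack of calls does not show a return to the control level. Without TL14d replicate 1, 4.74% of all genes passed. Of the members, HSPA5 (log2 fold change 0.87, adjusted p = 0.0412) and HSF4 (log2 fold change -2.19, adjusted p = 0.0481) then passed, each in no other of 19 alternatives, where the adjusted p reached 0.98. Between 3 and 14 days 0 members passed in edgeR, with 7 at an unadjusted p under 0.05, beside 2.24% of all genes called (0.647% higher and 1.59% lower) and 22.6% with an unadjusted p under 0.05. In DESeq2 2 passed (2.74%), beside 12.5% of all genes.

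Other genes of protein folding were read from 4 lists outside the symbols above. Of all genes tested, 23.2% rose and 22.2% fell at 3 hours (12.7% and 38.2% with plain library sizes). At 3 days 10.6% were higher and 7.0% lower. The cytosolic chaperonin TRiC, which folds actin and tubulin, and its partner prefoldin held 14 genes tested, of which 13 rose at 3 hours (10 with plain library sizes), with a median log2 fold change of 1.36, and 8 were still higher at 3 days. CCT4 had 90.4, 92.0, and 116 CPM in the control group and 422, 429, and 463 in TL3h (log2 fold change 2.14 ± 0.24, adjusted p = 0.000119). CCT3 and CCT5 rose by 2.01 and 1.63 on the log2 scale. At 3 days the 3 genes were higher by 0.86, 0.79, and 0.61, and each call depended on single libraries. CCT4 was lost without control replicate 1, control replicate 2, TL3d replicate 1, or TL3d replicate 2 (log2 fold change 0.77 to 0.87, adjusted p = 0.0905 to 0.107). CCT3 was lost without control replicate 1, control replicate 2, TL3d replicate 1, or TL3d replicate 2 (log2 fold change 0.71 to 0.77, adjusted p = 0.0738 to 0.0827), and CCT5 without control replicate 1, control replicate 2, TL3h replicate 1, TL3h replicate 2, TL3h replicate 3, TL3d replicate 1, TL3d replicate 2, or TL14d replicate 3 (log2 fold change 0.53 to 0.61, adjusted p = 0.0503 to 0.122).

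Of 20 tested genes of ER folding and the unfolded protein response, 10 rose and 1 fell at 3 hours (3 and 4 with plain library sizes), and 8 were higher at 3 days. The shares of all genes were 23.2% and 22.2% at 3 hours (12.7% and 38.2%), and 10.6% higher at 3 days. MANF, which is secreted under ER stress, rose from 11.6 ± 1.5 to 53.6 ± 12.7 CPM (log2 fold change 2.21 ± 0.25, adjusted p = 0.000141) and stayed higher at 3 days (log2 fold change 1.14, adjusted p = 0.0178, lost under 5 of 19 alternatives, among them without control replicate 1, control replicate 2, TL3d replicate 1, or TL3d replicate 2 (log2 fold change 1.06 to 1.19, adjusted p = 0.0545 to 0.0682)). XBP1, a transcription factor of this response that plasma cells also express, had 122, 139, and 142 CPM in the control group and 918, 284, and 1348 in TL3h (log2 fold change 2.66 ± 0.46, adjusted p = 0.00124). Its TL3h values varied, and TL3h replicate 2 was the lowest. DERL1, which passes misfolded proteins out of the ER, rose by 0.67, but not with plain library sizes.

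Of 17 tested cochaperones of HSP90 and HSP70 with other names, 10 rose and 1 fell at 3 hours (3 and 3 with plain library sizes), and 3 were higher at 3 days. The shares of all genes were 23.2% and 22.2% at 3 hours (12.7% and 38.2%), and 10.6% higher at 3 days. CACYBP, CDC37L1, and AHSA1 (an activator of HSP90 ATPase) rose by 1.42, 1.02, and 0.66, the last not with plain library sizes. FKBP5, an HSP90 cochaperone of steroid receptors and a glucocorticoid target chosen after its values were seen, was measured at 7.26, 8.83, and 454 CPM in the control group, 185, 231, and 296 in TL3h, 32.1, 24.6, and 36.1 in TL3d, and 8.84, 24.8, and 13.5 in TL14d. Control replicate 3 was above every operated library, and the difference at 3 hours did not pass (log2 fold change 0.60, adjusted p = 0.719). Without control replicate 3 FKBP5 rose at 3 hours (log2 fold change 4.83, adjusted p = 0.000134). In the list of mitochondrial and other chaperones, 1 of 9 rose and 1 fell at 3 hours (1 and 4 with plain library sizes), and none passed at 3 days. GRPEL2, the exchange factor of HSPA9, had 23.6, 25.4, and 25.3 CPM in the control group and 55.2, 54.1, and 51.5 in TL3h (log2 fold change 1.11 ± 0.10, adjusted p = 5.37e-05). CLPB, a disaggregase, had 26.3, 26.6, and 27 CPM in the control group and 16.3, 14.7, and 18.0 in TL3h (log2 fold change -0.70 ± 0.16, adjusted p = 0.00599). No gene of the 4 lists passed at 14 days, where edgeR called 0.0% of all genes.

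**Figure D5:**
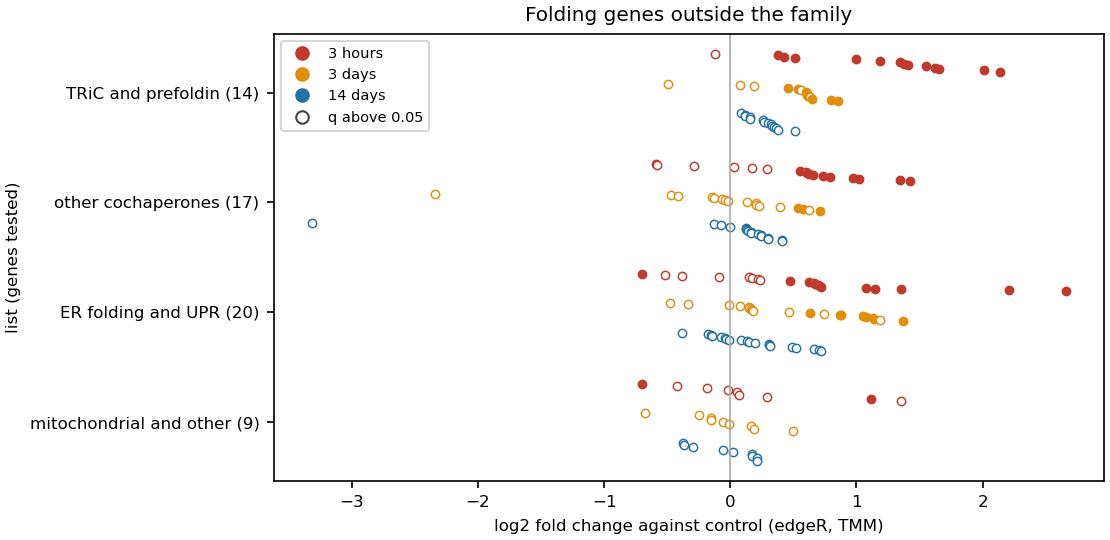
Log2 fold change against the control group (horizontal axis) of the genes of 4 folding lists outside the family (vertical axis, with the number tested), in red for 3 hours, orange for 3 days, and blue for 14 days; filled points have an adjusted p of at most 0.05. All TRiC and prefoldin genes but 1 are filled and right of 0 at 3 hours, the most negative points at 3 days and 14 days are FKBP5, and no point at 14 days is filled.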

How the data were processed

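RNA of 12 conjunctiva samples was sequenced as 150-base paired-end reads after poly(A) selection with a stranded kit. Per the labels and methods, the authors aligned the reads to OryCun2.0 with STAR 2.6.0c and deposited estimated counts and FPKM for genes and transcripts. Of the deposited estimated gene counts, 23.4% were fractions, and all were rounded to whole numbers. FPKM, computed by the authors, was used only to order genes within a group. Genes were filtered with filterByExpr (minimum count 10) and tested with edgeR 4.0.16 in R 4.3.3 (TMM, glmQLFit and glmQLFTest, all 12 libraries in 1 fit), with Benjamini-Hochberg adjustment over 14835 genes and a threshold of 0.05. On simulated counts with 200 genes changed, 97 were called, with 2 false calls, and 8 of 67 were recovered at a log2 change of 1 and 51 of 66 at 3 (TL3h against control). In the data 6733 of 14835 genes were called at 3 hours, so these recovery rates do not give the power of that comparison. Values after ± are SD for levels and SE for log2 fold changes.

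The members and lists were chosen with earlier results of these data known. The rule for named members took 29 symbols chosen by role, of which 25 are in the table, up to 12 members each way with the largest change past the threshold and no overlap with the control libraries at 3 hours or 3 days (32 in all), members with transcripts called in opposite directions, and the 3 genes with the smallest p in each other list. Members named beyond this, to fill out a family, were chosen after their values were seen. Alternatives were DESeq2 1.42.0, other scalings, no filter, the 2 groups alone, a replicate block, and leaving out each library. Floors cover counting error only, whereas the SE of a log2 fold change also holds the spread between libraries. No 2 libraries of the same group were copies of each other. No genome sequence was used.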

Additional observations from a re-analysis of the deposited data

Results flagged for a closer look

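The level at 3 days differed from that at 3 hours for 33 of 73 members, beside 37.3% of all genes (edgeR's quasi-likelihood test, adjusted p at most 0.05), so their 2 effects against the control group differed, since that test is the test of the difference between them. Of these, 31 were lower at 3 days and 2 (HSPA4L and DNAJC28) were higher, and 18 of the 33 calls held under all 19 alternatives. With plain library sizes 27 members passed, 16 lower and 11 higher, beside 8.31% and 34.2% of all genes.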

How the results depend on the processing

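Of the 37 calls at 3 hours, 21 held under all 19 alternatives and none changed direction. Counts were 28 to 41 when single libraries were left out, beside 34.9% to 48.1% of all genes. Against the control group at 3 days, 3 members passed, beside 17.6% of all genes. The count was 13 in DESeq2's Wald test, 5 with plain library sizes, and 9 with the 2 groups alone (30.1%, 16.9%, and 22.6% of all genes). It was 0 to 11 without single libraries (2.37% to 25.0%). Without both libraries that held skeletal muscle RNA, an alternative chosen after seeing the data, it was 0 (0.0%). At 14 days it was 0 to 2 without single libraries (2 without TL14d replicate 1, beside 4.74% of all genes). Between 3 and 14 days it was 2 in DESeq2, beside 12.5% of all genes. Member transcripts at 3 days numbered 0, but 11 in DESeq2 and 7 with the 2 groups alone (18.6% and 10.1% of all transcripts). Without single libraries they numbered 0 to 7, beside 0.0% to 10.7%. With plain library sizes, the log2 fold changes at 3 hours of DNAJB14 (-0.48) and DNAJC9 (-0.43) and the difference between 3 days and 3 hours of DNAJC16 (0.48) were past the threshold with a sign opposite to that under TMM. FKBP5 at 3 days was higher without control replicate 3 (1.93), and over all single libraries left out it ranged from -2.90 to 1.93. The cause of these changes was not tested.

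Whether the replicate numbers pair the samples was not settled. Correlations of the 18 same-numbered pairs ran from -0.15 to 0.48, 8 of them over 0.1, and 9 of 12 libraries correlated best with their own number. With a replicate block, 38 members passed at 3 hours (35 higher, 3 lower), 4 at 3 days, 0 at 14 days, and 37 between 3 hours and 3 days. Of all genes, 46.8%, 18.3%, 0.0%, and 39.3% passed, respectively. At 3 days the block kept HSPD1 and DNAJA4, lost HSPA4L (adjusted p = 0.0518), and added HSP90B1 and DNAJB11 (adjusted p = 0.0282 and 0.0489). With 3 libraries a group, changes near a log2 of 1 were often missed in simulated counts. Only 200 of 14835 genes were changed there, whereas 45.4% of all genes were called at 3 hours. The adjusted p depends on how many genes change, so the simulated rate cannot be carried over to 3 hours. A member that did not pass is still not shown to be unchanged.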
